A study of Mus musculus with 15 samples.

Results

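The 10 genes described here encode transporters of bicarbonate reabsorption in the kidney and carbonic anhydrases. They were taken by symbol from the 47069 genes of the expression table, and all 10 were found. Slc9a3 (the sodium-hydrogen exchanger NHE3) and Slc4a4 (the sodium-bicarbonate cotransporter NBCe1) are transporters, and the other 8 genes, Car2, Car4, Car5a, Car5b, Car9, Car12, Car14 and Car15, encode carbonic anhydrases. Messenger RNA was measured by RNA-Seq in single proximal tubules dissected under the label PTS2 (12 libraries, 1 tubule each) and in the whole organ (3 libraries). All mice were C57BL/6 males aged 2 months, with no treatment or altered allele named for either group. The labels place the PTS2 libraries in 3 sets, m1, m2 and m3, of 4 tubules numbered 1 to 4, and number the kidney libraries 1 to 3. They do not say what the sets or numbers stand for, nor which libraries came from separate mice, so the p-values measure the spread between these libraries, which may be partly technical.

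In the proximal tubule, NHE3 in the brush border secretes protons into the lumen, where they combine with filtered bicarbonate. Membrane-bound carbonic anhydrase on the luminal side turns the carbonic acid into carbon dioxide and water, the carbon dioxide enters the cell, and cytosolic carbonic anhydrase 2 forms bicarbonate again. NBCe1 then carries the bicarbonate across the basolateral membrane to the blood. S1, S2 and S3 are the early, middle and late segments of this tubule.

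Levels are TPM, which divide reads by transcript length and scale each library to the same total. How many reads stand behind a value cannot be read from them, and no counting error is given. Marker genes gave a measure of what the libraries held. The summed TPM of 5 markers of all proximal segments ranged from 11231 to 16560 in PTS2 and from 9275 to 10244 in whole kidney. Of these 5 markers, 1 was called, as higher, where 9.68% of all genes were called higher. Slc27a2 had means of 9166 TPM in PTS2 and 4620 TPM in kidney, without overlap. The other markers overlapped. The PTS2 means of Lrp2, Cubn and Aqp1 were 97.7%, 97.6% and 99.3% of the kidney means, and that of Slc34a1 was 73.7%. The sum of 3 S1 markers was 36.3 to 79.9 TPM in PTS2 against 818 to 892 TPM in kidney. In PTS2 this sum was nearly all Slc2a2, at 35.1 to 78.4 TPM. Slc5a2 was at most 1.38 TPM there and Slc5a12 at most 0.23 TPM. In kidney Slc2a2 was at 112 to 123 TPM and Slc5a2 at 590 to 655 TPM. The sum of 2 S2 markers was 368 to 1149 TPM against 719 to 781 TPM, and that of 2 S3 markers 1825 to 2868 TPM against 950 to 1358 TPM. The S2 markers did not move together: Slc22a6 overlapped kidney, at 339 to 988 TPM against 435 to 512 TPM, while Slc22a8 was lower in every tubule, at 24.7 to 161 TPM against 261 to 284 TPM (difference -2.21 ± 0.47, limma adjusted p = 0.000882). Both S3 markers were called higher in PTS2, though Atp11a overlapped, at 377 to 728 TPM against 297 to 449 TPM. Markers of intercalated cells, connecting tubule, distal convoluted tubule, podocytes and urothelium summed to at most 0.72 TPM in any PTS2 library. Principal cell markers summed to 8.94 to 58.3 TPM, mostly Aqp3, those of endothelium to 8.87 to 32.7 TPM, those of macrophages to 62.1 to 140 TPM, those of fibroblasts to at most 5.61 TPM and those of red blood cells to at most 1.39 TPM. The macrophage markers, at 397 to 499 TPM in kidney, did not move together. Csf1r had means of 39.1 TPM in PTS2 and 21.1 TPM in kidney, with overlap. The PTS2 means of C1qa, C1qb and Cd74 were 9.93%, 10.5% and 12.3% of the kidney means. Tubule 3 of set m3 stood apart: its 4 thick ascending limb markers summed to 1408 TPM, 58.9% of the kidney mean, while the next highest tubule had 55.0 TPM.

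All 10 genes had a mean of at least 1 TPM in both groups and entered the tests. Ordered by mean level in PTS2, Car4 came first, followed by Slc4a4, Car2, Car9, Car14, Car5b, Car5a, Slc9a3, Car12 and Car15. Of these neighbours, Car4 and Slc4a4 alone had ranges that did not overlap. In whole kidney the order was Car2, Car4, Slc4a4, Car14, Car12, Car15, Slc9a3, Car5b, Car9 and Car5a. There the ranges of Slc4a4 and Car14, of Car14 and Car12, and of Slc9a3 and Car5b overlapped.

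**Figure D1:**
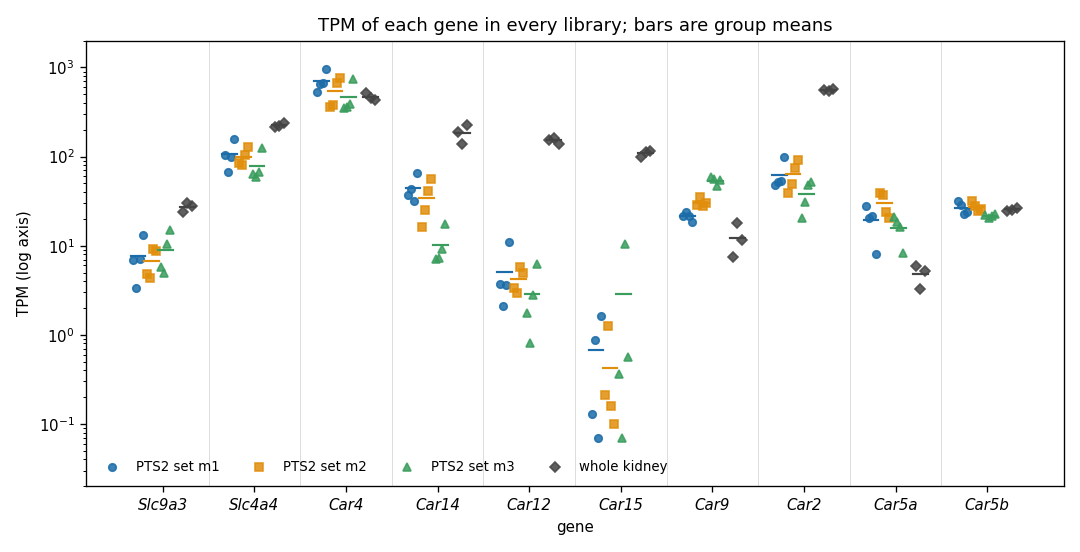
TPM of the 10 genes in each library on a log axis, with points for the 4 tubules of each PTS2 set and the 3 whole kidney libraries and short bars for group means. Car2, Car12, Car14, Car15, Slc4a4 and Slc9a3 lie lower in all 12 tubules than in the 3 kidney libraries, Car5a and Car9 lie higher, and Car4 and Car5b overlap.

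The first comparison asks how the level of each gene in single PTS2 tubules differed from that in the whole organ. Both transporters and 4 of the 8 carbonic anhydrases (Car2, Car12, Car14 and Car15) were lower in PTS2, Car5a and Car9 were higher, and Car4 and Car5b did not pass the threshold. Differences are in log2(TPM + 1), PTS2 minus kidney, with standard errors and Benjamini-Hochberg adjusted p-values from limma over 12039 genes, and a gene is called when its adjusted p is under 0.05. Of the 10 genes, 8 were called, 2 higher and 6 lower, against a background of 51.2% of all genes called, 9.68% higher and 41.5% lower. The same 8 had libraries that did not overlap between the groups, 6 below and 2 above, where 37.8% of all genes did not overlap, 32% below and 5.76% above. The median difference of the 10 genes was -1.54 and that of all genes -0.27. Of all genes called, 18.9% were higher. Rescaling the libraries by median-of-ratios moved the median of all genes to -0.003 and the share of higher calls to 49.7%, and quantile normalization moved them to 0.16 and 64.7%. The 8 calls were kept, with their direction, under each alternative tried. In such bulk libraries, fewer cells of a type and less RNA per cell cannot be told apart.

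Slc9a3 (ENSMUSG00000036123) lies at chr13:74121457-74169442 on the plus strand of the mouse genome GRCm38. It was at 23.8, 30.3 and 28.0 TPM in the 3 kidney libraries, and at 3.35 (lowest), 7.03 (median) and 15.01 TPM (highest) in PTS2. Every tubule was below every kidney library, and the PTS2 mean of 7.84 ± 3.65 TPM (SD, n = 12) was 28.6% of the kidney mean of 27.4 ± 3.33 TPM (SD, n = 3). The difference was -1.78 ± 0.33 (limma adjusted p = 0.00029). Slc4a4 (ENSMUSG00000060961, chr5:88886818-89239653, plus strand) was at 214, 222 and 236 TPM in kidney, and at 58.7, 92.0 and 159 TPM (lowest, median, highest) in PTS2. The groups did not overlap here either, with a PTS2 mean of 95.1 ± 30.6 TPM (SD, n = 12), 42.4% of the kidney mean. Its difference was -1.29 ± 0.25 (limma adjusted p = 0.000371). The S1 marker sum, which moved in the same direction as both transporters, had a PTS2 median at 5.34% of the kidney mean. Its 3 markers differed: the PTS2 mean of Slc2a2 was 41.7% of the kidney mean, that of Slc5a2 0.112% and that of Slc5a12 0.0864%. Other segments were lower too, with PTS2 medians at 0.431% of the kidney mean for thick ascending limb, 0.197% for distal convoluted tubule and 0.0817% for connecting tubule. The S2 and S3 sums had PTS2 medians at 86.9% and 215% of the kidney mean. The part of any of these segments in the differences of both transporters was not tested.

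Car4 (ENSMUSG00000000805, chr11:84957786-84966044, plus strand) encodes the lipid-anchored enzyme of the brush border. It was at 521, 453 and 426 TPM in kidney and at 349, 588 and 955 TPM (lowest, median, highest) in PTS2. The groups overlapped, and the PTS2 mean of 568 ± 200 TPM (SD, n = 12) was 1.22 times the kidney mean of 467 ± 48.6 TPM (SD, n = 3). With a difference of 0.20 ± 0.28 (limma adjusted p = 0.562), an effect of either sign lay within the error.

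Car14 (ENSMUSG00000038526, chr3:95897768-95904691, minus strand) encodes a membrane-spanning enzyme with its active site outside the cell. Kidney values were 191, 138 and 224 TPM, and PTS2 values were 7.06, 28.6 and 66.0 TPM (lowest, median, highest). The PTS2 mean of 29.9 ± 19.5 TPM (SD, n = 12) was 16.2% of the kidney mean, a difference of -2.88 ± 0.55 (limma adjusted p = 0.00038). Car12 (ENSMUSG00000032373, chr9:66713686-66766845, plus strand), another membrane-spanning form, was at 153, 163 and 139 TPM in kidney and at 0.80, 3.51 and 10.9 TPM (lowest, median, highest) in PTS2. Its PTS2 mean was 2.70% of the kidney mean and its difference -5.07 ± 0.40 (limma adjusted p = 1.57e-08).

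Car15 (ENSMUSG00000090236, chr16:17835276-17838364, minus strand) encodes a lipid-anchored enzyme. It had 99.4, 112 and 115 TPM in kidney and 0.07, 0.285 and 10.6 TPM (lowest, median, highest) in PTS2, the last in tubule 3 of set m3. The mean of 1.33 ± 2.95 TPM (SD, n = 12) was 1.22% of the kidney mean, and the difference was -6.02 ± 0.54 (limma adjusted p = 9.32e-08). Without the tubule with thick ascending limb markers it was -6.27 ± 0.27 (limma adjusted p = 9.23e-12). Gm20518 overlaps Car15 over 3088 bases on the same strand and holds 58.3% of its 50-base windows, so the split of reads between them is uncertain, and Gm20518 itself had kidney and PTS2 means of 5.54 and 0.126 TPM.

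Car9 (ENSMUSG00000028463, chr4:43506966-43513729, plus strand) encodes a membrane-spanning enzyme known as a target of hypoxia-inducible factors. It was at 7.38, 18.0 and 11.6 TPM in kidney and at 18.6, 29.4 and 58.6 TPM (lowest, median, highest) in PTS2. The groups did not overlap, though the lowest tubule was close to the highest kidney library. The PTS2 mean of 35.2 ± 14.6 TPM (SD, n = 12) was 2.86 times the kidney mean of 12.3 ± 5.36 TPM (SD, n = 3), a difference of 1.42 ± 0.32 (limma adjusted p = 0.00141). Gm12454, an antisense gene that overlaps Car9 over 1782 bases, had 12.2 to 24.9 TPM in the tubules and 5.86 to 9.28 TPM in the kidney libraries. The strand setting of the counting is not given in the sources used here, so reads of the pair cannot be told apart.

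Inside the cell, Car2 (ENSMUSG00000027562, chr3:14886273-14900770, plus strand), the cytosolic enzyme, was lower in PTS2 than in kidney. It had 563, 542 and 580 TPM in the 3 kidney libraries, and 20.4, 50.5 and 99.7 TPM (lowest, median, highest) in PTS2. The mean of 54.7 ± 23.2 TPM (SD, n = 12) was 9.74% of the kidney mean of 562 ± 18.7 TPM (SD, n = 3), and the difference was -3.45 ± 0.33 (limma adjusted p = 2.03e-07). Car2 and Car12 are also known from the collecting duct. Beside the lower levels of Car2, Car12 and Car15 stood the intercalated cell markers, whose 4 genes summed to 104 to 122 TPM in kidney and at most 0.38 TPM in PTS2, and the principal cell markers, at 681 to 945 TPM in kidney. Markers of other segments were lower in PTS2 as well. The thick ascending limb sum was at 2260 to 2536 TPM in kidney and had a PTS2 median at 0.431% of the kidney mean. The sums for distal convoluted tubule and connecting tubule had PTS2 medians at 0.197% and 0.0817%. The part of any of these cells and segments in the differences was not tested.

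Car5a and Car5b encode the mitochondrial forms, which supply bicarbonate to carboxylating enzymes. Car5a (ENSMUSG00000025317, chr8:121916126-121944904, minus strand) was at 5.86, 3.30 and 5.25 TPM in kidney and at 8.17, 20.7 and 39.5 TPM (lowest, median, highest) in PTS2. Every tubule was above every kidney library, and the PTS2 mean of 21.9 ± 9.56 TPM (SD, n = 12) was 4.56 times the kidney mean. The difference was 1.88 ± 0.37 (limma adjusted p = 0.000464). Gm20388 overlaps all of Car5a on the opposite strand and had means of 3.96 TPM (PTS2) and 5.59 TPM (kidney). Car5b (ENSMUSG00000031373, chrX:163976822-164027997, minus strand) was at 24.5, 25.4 and 26.8 TPM in kidney and at 20.6, 23.9 and 31.7 TPM (lowest, median, highest) in PTS2. Its difference was -0.03 ± 0.12 (limma adjusted p = 0.838) and turned to 0.25 ± 0.12 (adjusted p = 0.103) with median-of-ratios and to 0.30 ± 0.12 (adjusted p = 0.0371) with quantile normalization.

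The make-up of the carbonic anhydrase transcripts differed between the groups. The 16 carbonic anhydrase genes in the table, the 8 above and 8 others, had a summed level of 743 ± 225 TPM in the 12 tubules, against 1585 ± 63.0 TPM in the 3 kidney libraries (both SD). Car4 took 75.4% ± 4.82 (SD, n = 12) of that sum in PTS2, with a range of 67.5% to 81.9%, and 29.4% ± 2.70 (SD, n = 3) in kidney. Car2 held 7.23% ± 1.55 in PTS2 and 35.4% ± 0.889 in kidney, where it was the most abundant. Car9 held 5.50% ± 3.49 against 0.787% ± 0.374, and Car5a 3.38% ± 2.04 against 0.301% ± 0.0737. Car14, Car12 and Car15 held 11.6%, 9.58% and 6.87% in kidney and 3.71%, 0.517% and 0.219% in PTS2. In PTS2 the luminal brush border form thus outweighed every other form in every tubule.

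**Figure D2:**
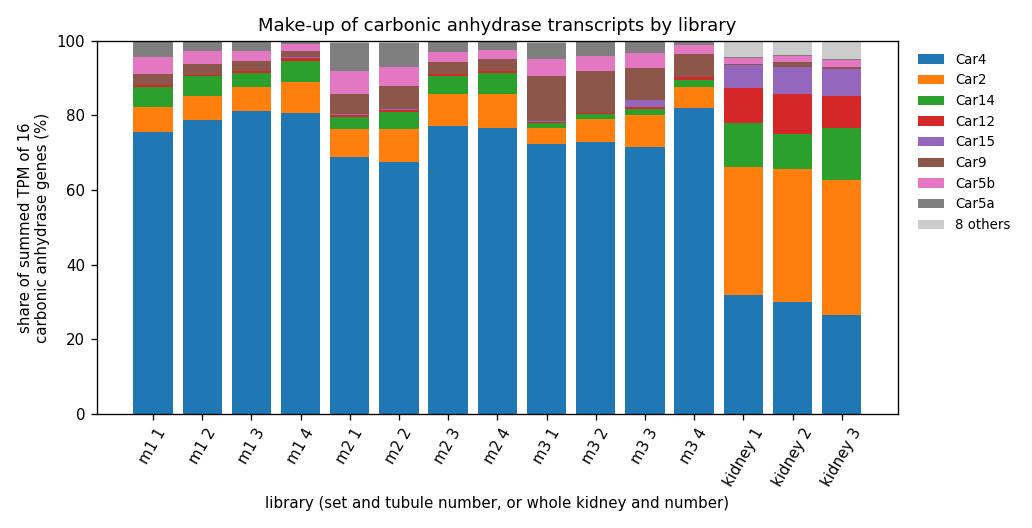
Stacked bars of each carbonic anhydrase gene as a percent of the summed TPM of the 16 carbonic anhydrase genes, 1 bar per library. Car4 fills 67.5% to 81.9% of every PTS2 bar, while in the 3 kidney bars Car2 and Car4 fill means of 35.4% and 29.4%.

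Among the 8 other carbonic anhydrases, 2 passed the filter of a mean of at least 1 TPM, and both were lower in PTS2. The share of all genes called was 51.2%, with 41.5% lower. Car3, a cytosolic form, had a PTS2 mean of 0.297 ± 0.170 TPM (SD, n = 12) against 58.6 ± 9.94 TPM in kidney (SD, n = 3), a difference of -5.52 ± 0.15 (limma adjusted p = 1.27e-14). Car7 was at 1.44 TPM and 4.45 TPM on average, with a difference of -1.20 ± 0.29 (limma adjusted p = 0.00235) that was not called under quantile normalization (adjusted p = 0.202).

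Of 19 other bicarbonate and proton exchangers, 12 were tested, 6 were lower, 1 was higher and 5 were not called. Among all genes 51.2% were called, 9.68% higher and 41.5% lower. The lower exchangers included those known from intercalated cells. These were Slc26a4 (pendrin; -5.25 ± 0.11), Slc4a1 (the anion exchanger AE1; -4.18 ± 0.10) and Slc4a9 (AE4; -4.03 ± 0.11), each at most 0.16 TPM in any PTS2 library, followed by Slc4a11 (-3.24 ± 0.20) and Slc4a2 (-1.09 ± 0.16). Rescaling moved the split to 2 higher and 6 lower with median-of-ratios, with Slc9a2 called higher, and to 3 higher and 5 lower with quantile normalization, with Slc9a2 and Slc4a7 called higher. Slc9a8 (the exchanger NHE8) was the 1 called higher, with a PTS2 mean of 387 ± 186 TPM (SD, n = 12), a kidney mean of 153 ± 48.9 TPM (SD, n = 3) and a difference of 1.21 ± 0.45 (limma adjusted p = 0.0357). Its groups overlapped, and the call was lost without tubule 1 of set m1, without any 1 of the 3 kidney libraries, and with no filter on low values. The mean of Slc9a8 in PTS2 was far above the 7.84 TPM of Slc9a3.

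All 12 partners and regulators of the transporters were tested, and 2 were higher and 5 lower. The share of all genes called was 51.2%, with 9.68% higher and 41.5% lower. Slc9a3r1 and Pdzk1, which encode PDZ-domain scaffolds of the brush border, were at 356 and 1405 TPM in PTS2 and at 247 and 1050 TPM in kidney, with differences of 0.52 ± 0.08 (adjusted p = 4.93e-05) and 0.42 ± 0.07 (adjusted p = 0.000157). Slc9a3r2, the related scaffold, went the other way, from 63.7 TPM in kidney to 9.37 TPM in PTS2 on average (-2.67 ± 0.17). Also lower were Ednrb (endothelin receptor B; -2.54 ± 0.26), Agtr1a (angiotensin II receptor; -1.03 ± 0.13), Ezr (the membrane-cytoskeleton linker ezrin; -0.47 ± 0.10) and Chp1 (a calcium-binding cofactor of sodium-hydrogen exchangers; -0.24 ± 0.09). The balance of this list turned with the scaling, to 5 higher and 3 lower with median-of-ratios, and it was 3 higher and 4 lower with quantile normalization. Called higher with median-of-ratios alone were Pth1r (0.46, adjusted p = 0.000327) and Ahcyl1 (0.19, adjusted p = 0.0342), and Ptk2b was called higher with both (0.39 and 0.41). Ezr was not called with median-of-ratios (-0.18, adjusted p = 0.054), and Chp1 was called with neither rescaling, its sign turning under median-of-ratios (0.05, adjusted p = 0.699). The Chp1 call was also lost with no filter on low values and in 8 of the 15 leave-outs (adjusted p of 0.0506 to 0.184).

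**Figure D3:**
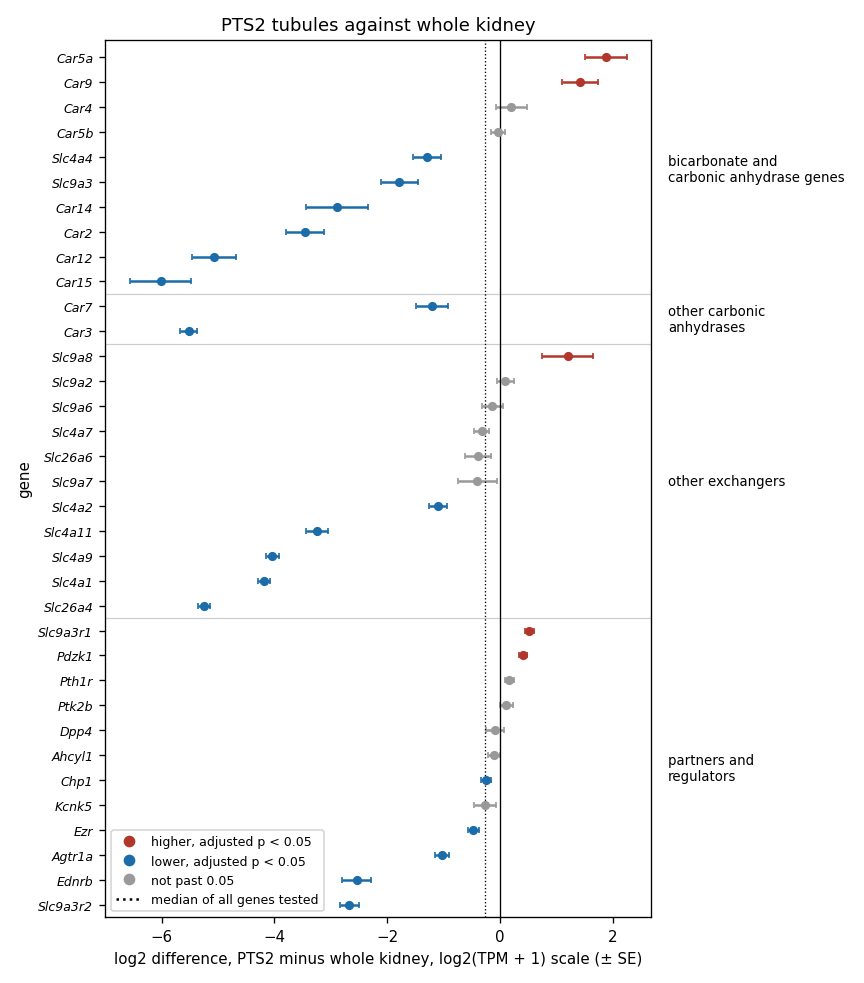
Differences in log2(TPM + 1) between PTS2 and whole kidney with standard errors for the 10 genes and the tested members of the 3 related lists (1 exchanger called lower is not drawn), coloured by call, with a dotted line at the median of all genes (-0.27). Among the 10 genes Car5a (1.88) and Car9 (1.42) lie right of zero as called, and Car15 (-6.02) and Car12 (-5.07) lie farthest left.

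Among the 3 PTS2 sets, Car9 and Car14 changed, in opposite directions. An F test in limma over 11300 genes called 2 of the 10 genes, against 3.02% of all genes. For the other 8, adjusted p lay between 0.257 (Car5b) and 0.860 (Slc9a3).

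Car9 was at 21.4, 24.1, 21.6 and 18.6 TPM in tubules 1 to 4 of set m1, at 28.8, 35.4, 27.7 and 30.0 TPM in set m2, and at 58.6, 56.0, 46.4 and 54.1 TPM in set m3. The 3 sets did not overlap, and set m3 was the highest. The means were 21.4 ± 2.23, 30.5 ± 3.41 and 53.8 ± 5.25 TPM (SD, n = 4 each), and the F test gave a limma adjusted p of 5.38e-05. Set m3 was above m1 by 1.29 ± 0.11 on the log2 scale (limma adjusted p = 3.31e-05) and above m2 by 0.80 ± 0.11 (limma adjusted p = 0.00113). The gap between m2 and m1, at 0.49 ± 0.11, missed the threshold (limma adjusted p = 0.074). The antisense Gm12454 had means of 18.0 ± 5.55, 17.8 ± 2.32 and 20.1 ± 2.17 TPM in sets m1, m2 and m3 (SD, n = 4 each), with overlapping ranges.

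Car14 was at 37.3, 43.8, 31.7 and 66.0 TPM in tubules 1 to 4 of set m1, at 16.4, 25.4, 41.0 and 55.7 TPM in set m2, and at 7.06, 7.21, 9.09 and 17.4 TPM in set m3. Set m3 lay below all of m1, while its highest tubule exceeded the lowest of m2. Set means were 44.7 ± 15.02, 34.7 ± 17.3 and 10.2 ± 4.90 TPM (SD, n = 4 each), and the F test gave a limma adjusted p of 0.0115. That call was lost without tubule 1 of set m3 (adjusted p = 0.0553), without tubule 2 of set m3 (adjusted p = 0.0521) and with no filter on low values (adjusted p = 0.0686). Set m3 was below m1 by -2.06 ± 0.36 (limma adjusted p = 0.008), a call kept in all 12 leave-outs, with adjusted p of at most 0.0342. Below m2 it was by -1.62 ± 0.36 (limma adjusted p = 0.0369). This call was lost in 7 of the 12 leave-outs, those of tubule 3 of m1, tubules 2, 3 and 4 of m2 and tubules 1, 2 and 3 of m3, where adjusted p ran from 0.0532 to 0.121, and with no filter on low values (adjusted p = 0.154). The opposite-strand neighbour Aph1a, which shares 521 bases with Car14, had means of 10.0, 8.37 and 8.35 TPM in the 3 sets.

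The calls between sets read against these backgrounds. Set m3 against m1 called 2 of the 10 genes, 1 higher and 1 lower, with 3.17% of all genes called, 2.23% higher and 0.938% lower. Of all genes called there, 70.4% were higher, a share that fell to 54.5% with median-of-ratios and 52.8% with quantile normalization. Set m3 against m2 called the same 2 genes in the same directions, with 1.97% of all genes called, 1.17% higher and 0.805% lower. Set m2 against m1 called 0 of the 10 by limma, with 0.54% of all genes called, 0.301% higher and 0.239% lower. There 1 of the 10, Car9, had an unadjusted p under 0.05, as had 1182 of all 11300 genes. The contrasts share sets. S2 marker sums had means of 810, 588 and 560 TPM and S3 marker sums 2038, 2432 and 2611 TPM in sets m1, m2 and m3, each with a spread within sets, and their part in the set differences was not tested. In the limma F test, 0 of 1 other carbonic anhydrase, 0 of 8 other exchangers and 0 of 12 partners tested were called. Of these, 0, 1 and 2 had an unadjusted p under 0.05, as had 1857 of all 11300 genes. Slc26a6 and Kcnk5 were called in that test under both rescalings, with adjusted p of 0.0201 and 0.00932 with median-of-ratios and of 0.0131 and 0.0260 with quantile normalization. By pairs, Slc26a6, an apical anion exchanger, was lower in m3 than m1 (-0.78 ± 0.18, limma adjusted p = 0.0343), and Kcnk5, the potassium channel TASK2, was higher in m3 than m2 (0.50 ± 0.12, limma adjusted p = 0.0479). Both calls were lost with no filter on low values, and they were lost in 7 and 9 of the 12 leave-outs.

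Because Car9 and Car14 were the genes that differed among the sets, the bases upstream of their start sites are shown, from RefSeq on GRCm38.p6. Each window holds the 250 bases before the start site, 5′ to 3′ along the gene's strand, at chr4:43506776-43507025 (plus strand) for Car9 and chr3:95904686-95904935 (minus strand) for Car14. Capitals mark the match to ACGTG, the core of the hypoxia response element, searched on both strands, which appears as CACGT where it lies on the opposite strand.
Car9: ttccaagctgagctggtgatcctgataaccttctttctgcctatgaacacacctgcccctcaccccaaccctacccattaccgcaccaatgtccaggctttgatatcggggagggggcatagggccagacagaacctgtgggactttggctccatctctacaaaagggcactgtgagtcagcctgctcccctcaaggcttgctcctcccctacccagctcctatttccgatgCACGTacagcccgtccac
Car14: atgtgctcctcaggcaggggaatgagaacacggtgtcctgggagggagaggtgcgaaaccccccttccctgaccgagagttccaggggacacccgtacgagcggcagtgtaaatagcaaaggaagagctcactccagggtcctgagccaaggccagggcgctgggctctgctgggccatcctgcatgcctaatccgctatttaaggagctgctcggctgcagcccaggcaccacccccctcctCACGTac
The match began 18 bases before the RefSeq start site in Car9 and 7 bases before it in Car14. The GENCODE positions given above place the gene starts elsewhere, at chr4:43506966 for Car9 and chr3:95904691 for Car14, inside both windows. By those positions the Car9 match lies within the gene, and the Car14 match overlaps the first bases of the gene. Windows were found for 9 of the 10 genes, none for Car2, and 3 of the 9 held the letters, the other being Slc9a3. Of all 32851 windows of this length, 16.6% held them. The match describes the letters alone and says nothing of binding.

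Levels of several genes moved with the tubule number inside the sets. Slc4a4, Car2, Car4 and Car14 were highest in tubule 4 of each of the 3 sets, where 4.79% of all genes had that pattern, and Car5a was lowest in tubule 4 and highest in tubule 1 of each set, where 4.49% of all genes were lowest in tubule 4. Slc9a3 and Car12 were highest in tubule 4 of sets m1 and m3 and in tubule 3 of set m2. An F test of the number, with the set as a term, called 6 of the 10 genes by limma, against 2.71% of all genes. Those called were Slc9a3, Slc4a4, Car2, Car4, Car5a and Car14. The labels do not explain the numbers. The F test takes tubules with the same number in the 3 sets as 1 level, which the labels do not state. Deviations of such tubules from their set means were shared only in part, with r over 0.1 in 7 of 12 pairs.

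Car4 was at 532, 644, 675 and 955 TPM in tubules 1 to 4 of set m1, at 362, 379, 674 and 753 TPM in set m2, and at 349, 364, 393 and 735 TPM in set m3. Tubule 4 was above the others in each set, by a wide gap in m1 and m3. The difference of tubule 4 minus tubule 1 was 0.99 ± 0.14 on the log2(TPM + 1) scale (limma F test adjusted p = 0.0142). Car2 was at 47.4, 51.5, 52.6 and 99.7 TPM in set m1, at 39.0, 49.5, 75.0 and 91.4 TPM in set m2, and at 20.4, 30.7, 47.9 and 51.7 TPM in set m3. The order of the 4 tubules was the same in each set, as for Car4, with a difference of 1.19 ± 0.16 (limma F test adjusted p = 0.0121).

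The mitochondrial Car5a ran the opposite way, at 27.8, 20.5, 21.7 and 8.17 TPM in tubules 1 to 4 of set m1, at 39.5, 37.1, 23.9 and 20.4 TPM in set m2, and at 20.9, 18.2, 16.2 and 8.26 TPM in set m3. The difference between tubules 4 and 1 was -1.27 ± 0.17 (limma F test adjusted p = 0.0116). For Slc4a4 the mean over sets was 84.8, 68.6, 90.0 and 137 TPM in tubules 1 to 4, with tubule 2 the lowest and tubule 4 the highest in each set. Its difference was 0.70 ± 0.12 (limma F test adjusted p = 0.0116). Slc9a3 had means of 5.87, 4.20, 8.95 and 12.3 TPM, a difference of 0.93 ± 0.20 (limma F test adjusted p = 0.017). For Car14 the difference was 1.23 ± 0.22 (limma F test adjusted p = 0.0497), and its call was lost in 9 of the 12 leave-outs.

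Not called for the number by the limma F test were Car12 (1.07 ± 0.27, adjusted p = 0.0522), Car5b (-0.22, adjusted p = 0.312), Car9 (-0.08, adjusted p = 0.343) and Car15 (0.43, adjusted p = 0.758). The differences given are tubule 4 minus tubule 1, while the F test and its p take in all the tubule numbers. Car12 was called with median-of-ratios (adjusted p = 0.0467), with quantile normalization (adjusted p = 0.0416), without tubule 2 of set m2 (adjusted p = 0.0405) and without tubule 4 of set m2 (adjusted p = 0.0151). The calls for the number rested on few libraries. Without tubule 4 of set m1, limma called 0 of the 10 genes and 75 of all genes. An unadjusted p under 0.05 was kept by 7 of the 10, and 2044 of all 11300 genes had one. Without tubule 4 of set m3 it called 1, without tubule 1 of set m2 it called 2, and with no filter on low values it called 0 of the 10 and 0 of all genes, with 7 of the 10 and 2871 of all genes at an unadjusted p under 0.05.

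Markers of proximal segments moved with the number as well. The S2 marker sum had means of 481, 474, 634 and 1022 TPM in tubules 1 to 4, and the S1 marker sum 43.1, 38.7, 48.0 and 70.4 TPM, both highest in tubule 4 of each set. The S1 sum was nearly all Slc2a2 in these tubules. Of the 3 S1 markers, 1 was tested for the number, and it was called. The principal cell sum had means of 14.97, 19.9, 20.7 and 39.8 TPM and was also highest in tubule 4 of each set. That sum was mostly Aqp3, at a mean of 18.4 TPM over the 12 tubules. Fxyd4 had a mean of 4.07 TPM and Aqp2 of 1.28 TPM, and Scnn1g was at most 0.09 TPM. Of 3 principal cell markers tested for the number, 1 was called. So were 2 of 2 S2 markers, 1 of 5 markers of all proximal segments and 1 of 4 macrophage markers. In the same test 0 of 2 S3, 0 of 4 thick ascending limb, 0 of 3 endothelium and 0 of 1 fibroblast markers were called. The share of all genes called for the number was 2.71%. The S3 sum had means of 2699, 2319, 2229 and 2195 TPM. The part of all these markers in the differences between tubules was not tested. Of the related lists, 2 of 8 tested exchangers were called for the number, against 2.71% of all genes. Tubule 4 minus tubule 1 was -1.70 ± 0.20 for Slc9a8 (limma F test adjusted p = 0.00964) and -1.10 ± 0.21 for Slc9a7 (limma F test adjusted p = 0.027). The Slc9a8 call was kept in all 12 leave-outs. The Slc9a7 call was kept only without tubule 2 of set m1: in 6 of the other 11 leave-outs adjusted p ran from 0.0503 to 0.0937, and in 5 its mean fell under 1 TPM and it was not tested. With no filter on low values neither was called, and the F test called 0 of all genes. Slc9a8 was at 497, 670 and 677 TPM in tubule 1 of sets m1, m2 and m3 and at 92.7, 255 and 271 TPM in tubule 4. So the 2 exchangers Slc9a3 and Slc9a8 ran in opposite directions over the numbers. Of the 12 partners and regulators 0 were called by limma, and 5 had an unadjusted p under 0.05, as had 2387 of all 11300 genes.

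**Figure D4:**
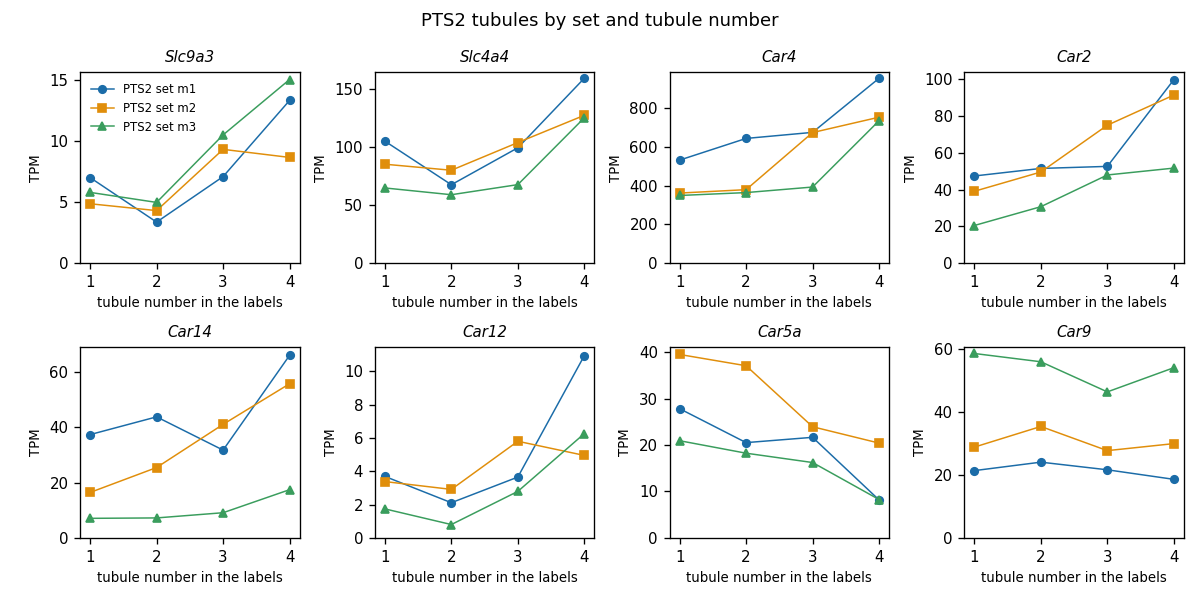
TPM of 8 of the 10 genes against the tubule number of the labels, with 1 line per PTS2 set joining its 4 tubules, and the vertical axis from 0. Car4, Car2 and Slc4a4 peak at tubule 4 in each set, Car5a is lowest there, and the lines of Car9 are separated by set, at means of 21.4, 30.5 and 53.8 TPM.

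The genes whose pattern was most like each of the 10 were found over the 12 PTS2 libraries, among 11300 genes, by Pearson r of log2(TPM + 1). These values describe libraries that share sets and are given without a test. Slc4a4 was nearest to Bnc2 (r = 0.960), Tnfaip8 and C030005K06Rik, and Car12 was nearest to Slc4a4 itself (r = 0.940). Car4 was nearest to Tceal8 (r = 0.979), Enpp6 and Slco1a6, Car5a to Acadm (r = 0.968), Clu and Slc22a26, and Car2 to Acnat2 (r = 0.952), Gpx1 and Mgst1. Slc9a3 was nearest to Ugt2b5 (r = 0.911), Bag1 and Gm15163, and Car5b to Laptm4b (r = 0.900), Hspa4l and Zfp704. Car9 was nearest to Cish (r = 0.966), Coq10b and Fmo5, and Car14 to G6pc (r = 0.967), Gldc and Acnat2. For Car9 and Car14, r with the nearest gene without the 2 libraries farthest from the median was 0.945 and 0.942. The libraries left out were tubules 1 and 2 of set m3 for both genes. Tubules 3 and 4 of that set remained, so these values cannot separate the likeness from the difference between sets. Car15 was nearest to Cldn16 (r = 0.951), Wfdc15b and Ptger3, of which Cldn16 and Ptger3 are thick ascending limb markers. Without tubule 3 of set m3 and tubule 4 of set m1 its r with Cldn16 was 0.462, so that likeness rests on those libraries.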

How the data were processed

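RNA-Seq values of 12 PTS2 tubules and 3 whole kidneys were grouped by the description labels. The authors deposited 1 table of TPM, made with STAR 2.5.1b and RSEM 1.2.31 on GRCm38.p5, per the submitters' processing notes. RNA was amplified with the SMART-Seq V4 kit, per the labels' protocols. Each column summed to 1000000 apart from rounding, and TPM hold no depth. The authors' 4 columns of means and errors were not used.

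The test was limma 3.58.1 (R 4.3.3) on log2(TPM + 1), with a mean-variance trend and Benjamini-Hochberg adjustment, over genes whose mean reached 1 TPM. For the kidney comparison the PTS2 sets were correlated blocks (correlation 0.0669). The fits were tested on simulated data. Positions came from GENCODE M21 and promoters from RefSeq. Python 3.11.15, numpy 2.4.6, pandas 2.3.3 and matplotlib 3.10.9 did the rest. Named genes were the 10 genes, called genes of 3 related lists and the 3 genes nearest each in pattern. One called gene of these lists is counted but not reported here by name. The genes and lists were chosen with earlier results of these data known. Alternatives were a pseudocount of 0.1 TPM, no filter, a filter at 10 TPM, median-of-ratios and quantile rescaling, a replicate block, independent libraries in a set, sets averaged first, and single libraries removed.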

Additional observations from a re-analysis of the deposited data

Results flagged for a closer look

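In 5 of 30 groups of 4 tubules (10 genes in 3 sets), 1 tubule lay farther from its neighbour than Dixon's test allows at the 95% level, where chance gives about 1 in 20, or 1.5 of 30. Slc4a4 was at 124.85 TPM in tubule 4 of set m3, and the next tubule was at 67.41 TPM. In the same tubule Car4 was at 735.43 TPM, next to 392.74 TPM. Car2 was at 99.73 TPM in tubule 4 of set m1, next to 52.58 TPM. Car15 was at 10.55 TPM in tubule 3 of set m3, the tubule whose thick ascending limb markers summed to 1408 TPM, next to 0.57 TPM. In tubule 2 of set m2 Car15 was at 1.25 TPM, next to 0.21 TPM, and the thick ascending limb markers there summed to 44.3 TPM, the highest of that set.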

How the results depend on the processing

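The counts of all genes called varied with the setting. With no filter on low values they were 9399 for PTS2 against kidney, 196 among sets, 178 for m3 against m1, 111 for m3 against m2 and 0 for the tubule number, where the main counts were 6161, 341, 358, 223 and 306, and more genes were tested. Of the 10 genes, 1 was then called among sets, 1 for m3 against m2 and 0 for the number. With a mean of at least 10 TPM, 3113 genes were called against kidney, and 1 of the 10 (Car9) for m2 against m1. For m2 against m1 (61 genes), median-of-ratios gave 105 and quantile normalization 107. Leaving out 1 library at a time gave 4761 to 6712 genes against kidney, within 1.5 times of the main count, 197 to 563 among sets, 37 to 135 for m2 against m1, 160 to 771 for m3 against m1, 119 to 313 for m3 against m2 and 75 to 507 for the number. Of the 10 genes, it called 8 against kidney, 1 to 2 among sets, 0 for m2 against m1, 2 for m3 against m1, 1 to 2 for m3 against m2 and 0 to 6 for the number. Apart from the smaller number of libraries or the changed number of genes tested, the cause was not tested.

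Signs turned for differences not called in the main fit. Car5b against kidney was 0.25 with median-of-ratios, 0.30 with quantile normalization and -0.062 to 0.0016 with libraries left out. With quantile normalization it was called higher (limma adjusted p = 0.0371). For m2 against m1, Car2 was -0.023 with median-of-ratios and -0.044 with quantile normalization, and Car5b was -0.0090 with quantile normalization. With libraries left out, m2 against m1 ranged from -0.39 to 0.19 for Slc9a3, -0.28 to 0.13 for Slc4a4, -0.18 to 0.26 for Car2, -0.029 to 0.13 for Car5b, -0.32 to 0.33 for Car12 and -0.43 to 0.057 for Car15. For m3 against m1 it ranged from -0.068 to 0.50 for Slc9a3 and -0.58 to 0.032 for Car5a, and for tubules 4 and 1 from -0.092 to 0.76 for Car15. Without tubule 3 of set m3, Car15 fell under the filter of 1 TPM among the PTS2 libraries and was not tested there.

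Tubules with the same number in different sets shared deviations only in part: r was over 0.1 in 7 of 12 pairs (0.0254 to 0.273), and 9 of 12 libraries correlated best with their own number, a hint from the data and not from the design. With the number as a replicate block, 6292 genes were called against kidney, 888 among sets, 307 for m2 against m1, 838 for m3 against m1 and 416 for m3 against m2. Of the 10 genes, 8, 5, 2, 5 and 4 were called in these comparisons. Beside Car9 and Car14, these were Car2 (adjusted p = 0.0102), Car4 (0.0219) and Car5a (0.00836) among sets, Slc4a4, Car2 and Car4 (all lower) for m3 against m1, and Car2 and Car5a (both lower) for m3 against m2. For m2 against m1 they were Car9 (0.49, adjusted p = 0.0188) and Car5a (0.67, adjusted p = 0.0397), both higher. Unknown depth limits all values under about 1 TPM, such as those of Car15 in PTS2.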
